A study of Mus musculus with 605 samples.

Results

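Chemokine receptors and RGS genes were examined in single skin myeloid cells: the receptors Ccr7, Ccr2, Ccr1, Cx3cr1 and Cxcr4, and the regulators Rgs1 and Rgs2. These 7 genes, of 30959 gene symbols in the tables, were chosen by their measured values in these same cells, so every level and difference of theirs below is a description and carries no test. The series holds 605 single cells of mouse dorsal skin in 7 groups, of which 155 are labelled myeloid cells, 78 wild-type and 77 mutant, both at postnatal day 56. Bulge stem cells of the hair follicle (wild-type at postnatal days 30 and 56, mutant at day 56) and melanocytes (wild-type and mutant, day 56) served as an outgroup. The label calls the altered genotype Mut, and the study describes it as an oncogenic Nras transgene under the tyrosinase promoter, which is active in pigment cells. The myeloid cells are therefore cells of the surrounding skin, and no transgene is driven in them by design. Each group is given as 1 set of cells with no animal or capture run named, and such a set is called a plate here. A difference between genotypes and a difference between capture runs or animals therefore cannot be told apart. How the myeloid cells were sorted is not stated in the labels or methods.

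Chemokine receptors are membrane receptors that couple to inhibitory G proteins and steer migrating leukocytes along gradients of chemokines. CCR7 takes activated dendritic cells and lymphocytes to lymph nodes, CCR2 and CCR1 bring monocytes into inflamed tissue, CX3CR1 marks patrolling monocytes and many resident macrophages, and CXCR4 retains cells near sources of CXCL12. RGS proteins speed up the hydrolysis of GTP on G protein alpha subunits and so end receptor signalling, and RGS1 and RGS2 are both made in activated leukocytes.

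In the GRCm38 build, Rgs1 (ENSMUSG00000026358.13, chromosome 1, 144242296 to 144249242) and Rgs2 (ENSMUSG00000026360.9, chromosome 1, 143999338 to 144004161) lie 238 kb apart on the minus strand. Cxcr4 (ENSMUSG00000045382.6) spans positions 128588199 to 128592293 of the same chromosome. Ccr1 (ENSMUSG00000025804.4, 123962124 to 123968692) and Ccr2 (ENSMUSG00000049103.13, 124101950 to 124113557) lie 133 kb apart on chromosome 9, which also holds Cx3cr1 (ENSMUSG00000052336.6, 119901616 to 120069879). Ccr7 (ENSMUSG00000037944.8) lies on chromosome 11 from 99144196 to 99155077. RefSeq promoter sequence was found for 5 of the 7 genes, not for Ccr7 or Rgs1. The 250 bases before the RefSeq start site are shown for the members detected in every group, Cxcr4 and Rgs2. They are also shown for Ccr2 and Ccr1, seen in at most 1 cell of any other table (RefSeq, GRCm38.p6, 5′ to 3′ on the gene's strand). The RefSeq start can differ from the gene ends given above. By those ends, the Ccr2 window lies mostly, and the Cx3cr1 window wholly, inside the gene, and the Rgs2 window overlaps its gene slightly. Capitals mark matches on either strand to the motifs searched, which were the TATA box (TATAAA), the GC box (GGGCGG), the CCAAT box, the AP-1 site (TGANTCA), the CRE (TGACGTCA), the heat shock element core (GAANNTTC) and an NF-kappaB motif.
Cxcr4, chr1:128592300-128592549, strand -: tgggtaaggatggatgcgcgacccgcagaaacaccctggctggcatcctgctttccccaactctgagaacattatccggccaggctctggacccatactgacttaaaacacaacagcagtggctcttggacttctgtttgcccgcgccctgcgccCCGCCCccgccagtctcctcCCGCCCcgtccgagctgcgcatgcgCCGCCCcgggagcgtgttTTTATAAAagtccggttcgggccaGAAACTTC
Rgs2, chr1:144004150-144004399, strand -: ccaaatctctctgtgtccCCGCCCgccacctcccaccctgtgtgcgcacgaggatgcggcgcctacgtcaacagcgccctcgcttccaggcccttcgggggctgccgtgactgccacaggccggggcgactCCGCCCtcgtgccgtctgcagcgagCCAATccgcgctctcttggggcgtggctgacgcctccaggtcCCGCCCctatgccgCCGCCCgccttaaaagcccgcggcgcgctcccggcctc
Ccr2, chr9:124101933-124102182, strand +: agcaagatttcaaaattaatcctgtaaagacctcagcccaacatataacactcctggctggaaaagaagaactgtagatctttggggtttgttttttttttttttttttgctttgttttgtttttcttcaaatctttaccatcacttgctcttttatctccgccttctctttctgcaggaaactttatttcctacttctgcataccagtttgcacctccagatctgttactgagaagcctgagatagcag
Ccr1, chr9:123968693-123968942, strand -: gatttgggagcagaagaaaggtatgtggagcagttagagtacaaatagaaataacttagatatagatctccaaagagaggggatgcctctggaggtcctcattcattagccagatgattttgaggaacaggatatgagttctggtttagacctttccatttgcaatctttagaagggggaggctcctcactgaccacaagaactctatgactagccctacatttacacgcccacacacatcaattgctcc
The GC box GGGCGG occurred 3 times before Cxcr4 and 4 times before Rgs2, and at least 1 copy was present in 32.7% of 32851 promoters of the same length. Cxcr4 also had 2 overlapping matches to TATAAA, found in 12.4% of promoters, and 1 to the heat shock element core, found in 6.69%. Rgs2 had 1 CCAAT match, a motif of 33.8% of promoters. None of the 7 motifs was in the Ccr2 or Ccr1 window, and the Cx3cr1 window held 1 CCAAT match.

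After limits on the TPM total, which is scaled for transcript length and for the total of each cell, mitochondrial share and genes per cell, 73 wild-type and 72 mutant myeloid cells were kept, with medians of 2946 and 2945 genes above 0 per cell. Sequencing depth cannot be read from TPM, and the number of genes per cell stands in for it here. The label held for most cells. Ptprc (CD45) was at TPM 1 or more in 94.5% of wild-type and 94.4% of mutant cells, and Tyrobp, an adaptor of myeloid receptors, in 94.5% and 88.9%. The lysozyme gene Lyz2, a common myeloid marker, was seen in only 13.7% and 12.5%. The antigen presentation gene H2-Ab1 was in 73 of 73 wild-type and 68 of 72 mutant cells, and the lectin gene Mgl2 of dermal dendritic cells and macrophages in 61 and 47. The T or NK cell marker set was the leading set of 4 wild-type and 10 mutant cells. Macrophage markers were lower in the mutant plate for 10 of 10 tested members, for example C1qa in 23 of 73 against 9 of 72 cells, and whether fewer such cells or a lower level per cell gave this cannot be told apart. Genes were tested if detected in at least 10% of cells of either plate. C1qc, Pf4 and Folr2 reached this in the wild-type plate only, so the count has no weight of its own. The part of the macrophage markers in the values below was not tested.

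Cxcr4 was the receptor seen most often and Ccr7 the receptor with the highest level where present. Cxcr4 was detected (TPM 1 or more) in 44 of 73 wild-type cells, 60.3% (exact 95% binomial interval 48.1 to 71.5%), and in 57 of 72 mutant cells, 79.2% (68 to 87.8%), and these intervals overlapped. All intervals and limits here count cells of 1 plate with no animal named, so they cover counting error only. Levels rest on PCR reads without molecular identifiers, which are not independent molecules. Cxcr4 TPM ran from 0 to 180 with a median of 9.30 in wild-type cells. In mutant cells it ran from 0 to 477 with a median of 53.9. The Cxcr4 signal was thus widespread and low, and the ranges of the genotypes overlapped.

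Ccr7 showed the opposite form. It was detected in 15 of 73 wild-type cells (20.5%, 12 to 31.6%) and 27 of 72 mutant cells (37.5%, 26.4 to 49.7%), and its median over all cells was 0 TPM in both plates. Among cells with the gene the median was 962 TPM in wild-type and 1915 TPM in mutant cells, and the highest cells reached 14227 and 15702 TPM. The 3 highest wild-type cells held 68.6% of all Ccr7 TPM of their plate, and the 3 highest mutant cells 39.3%. Raising the limit from 1 to 10 TPM left the shares at 19.2% and 36.1%, so few cells lay between these limits.

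Where detected, Ccr2 and Ccr1 were at lower levels than Ccr7. Ccr2 was detected in 23 wild-type cells (31.5%, 21.1 to 43.4%) and 33 mutant cells (45.8%, 34 to 58%), with medians of 73.9 and 98.6 TPM where detected and highest values of 793 and 852 TPM. Ccr1 was seen in 12 wild-type cells (16.4%, 8.79 to 27%) and 9 mutant cells (12.5%, 5.88 to 22.4%), with highest values of 695 and 424 TPM. Cx3cr1 was the rarest member. It was in 3 wild-type cells, at no more than 12.8 TPM, and in 8 mutant cells, at no more than 89.3 TPM, which are shares of 4.11% (0.856 to 11.5%) and 11.1% (4.92 to 20.7%). In order of share the receptors ran Cxcr4, Ccr2, Ccr7, Ccr1 and Cx3cr1 in both plates, and the intervals of Ccr2 and Ccr7 overlapped in each plate, as did those of Ccr1 and Cx3cr1.

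Rgs1 had the higher mean TPM of the RGS members, at 415 in wild-type and 1550 in mutant cells, against 260 and 603 for Rgs2. In wild-type cells its median and share were below those of Rgs2. It was at TPM 1 or more in 37 of 73 wild-type cells (50.7%, 38.7 to 62.6%) and 51 of 72 mutant cells (70.8%, 58.9 to 81%). Its median was 1.40 TPM over wild-type cells (highest 2911) and 428 TPM over mutant cells (highest 17386). Rgs2 was in 39 wild-type cells (53.4%, 41.4 to 65.2%) and 45 mutant cells (62.5%, 50.3 to 73.6%), with medians of 16.8 and 50.5 TPM. Its sum rested on few cells, since the 3 highest held 52.6% of wild-type and 59.8% of mutant Rgs2 TPM.

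**Figure D1:**
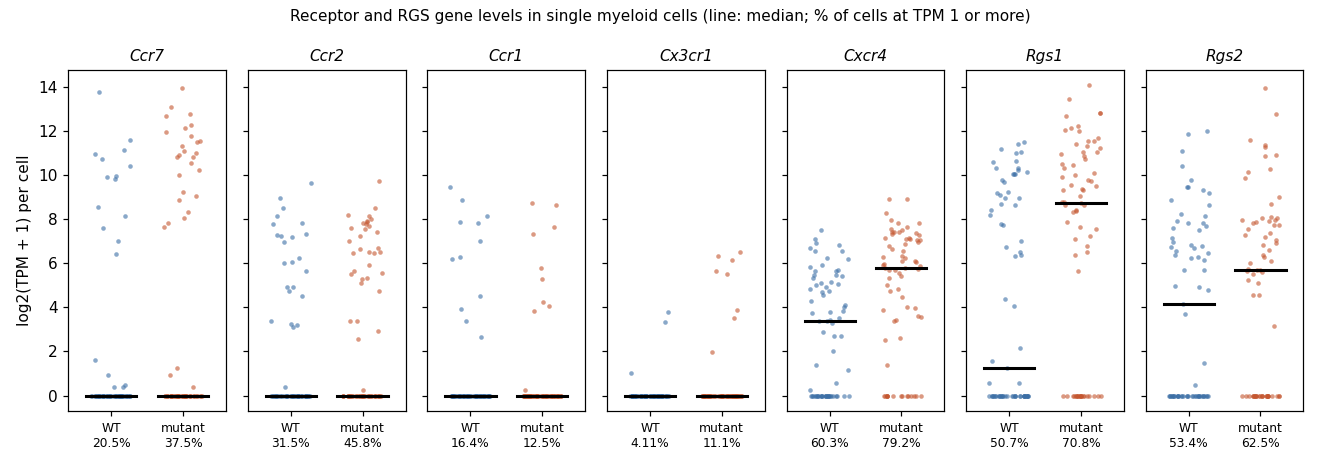
Level of each member in single myeloid cells as log2(TPM + 1), with 1 point per cell (73 wild-type, 72 mutant), a line at the median and the share of cells at TPM 1 or more under each column. Ccr7 cells are either near 0 or high, whereas Cxcr4 cells spread over low levels, and the Rgs1 median is 1.40 TPM in wild-type and 428 TPM in mutant cells.

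Outside the myeloid tables the receptors and Rgs1 were seen in few cells, and Rgs2 in many. Ccr7 was absent from 84 wild-type bulge cells of day 30 and 83 of day 56, which allows shares of up to 3.57% and 3.61% (3 cells of the total, the limit used here for every count of 0), and it was seen in 1 of 89 mutant bulge cells, 1 of 81 wild-type melanocytes and 0 of 84 mutant melanocytes, where up to 3.57% is allowed. The melanocyte with Ccr7 held 9535 TPM and at least 4 of the 6 leukocyte markers. Rgs1 was detected in 0 to 2 cells of each outgroup table, at up to 2699 TPM in 1 mutant bulge cell, which was the only cell of its table with Ptprc. Both wild-type bulge cells of day 56 and both wild-type melanocytes with Rgs1 held at least 4 of the 6 leukocyte markers. The 2 mutant melanocytes with Rgs1 (317 and 529 TPM) and the mutant bulge cell with Ccr7 had neither 4 of these markers nor Ptprc. Cxcr4 was seen in 2.38 to 7.87% of the cells of the outgroup tables and never exceeded 42 TPM there.

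Rgs2 did not follow this pattern. It was in 45 of 83 wild-type bulge cells at day 56 (54.2%, 42.9 to 65.2%), beside 53.4% of wild-type myeloid cells. In wild-type bulge cells of day 30 it was in 15 of 84 (17.9%, 10.4 to 27.7%) and in mutant bulge cells in 29 of 89 (32.6%, 23 to 43.3%). The mean TPM was 82.4 in wild-type bulge cells of day 56 and 29.5 and 34.6 in the other bulge tables, below the 260 and 603 of the myeloid tables. The melanocyte tables had Rgs2 in 9.88% and 9.52% of cells. The list of 26 immediate early and dissociation genes, such as Fos and Jun, which turn on within minutes of a stimulus, had median levels of 2.4, 1.34 and 0.40 log2 units in the wild-type day 56, wild-type day 30 and mutant bulge tables, and within these tables its correlation with Rgs2 over cells was weak (Spearman's rho -0.17, 0.17 and 0.17 over 83, 84 and 89 cells). Its part in the Rgs2 shares was not tested further.

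**Figure D2:**
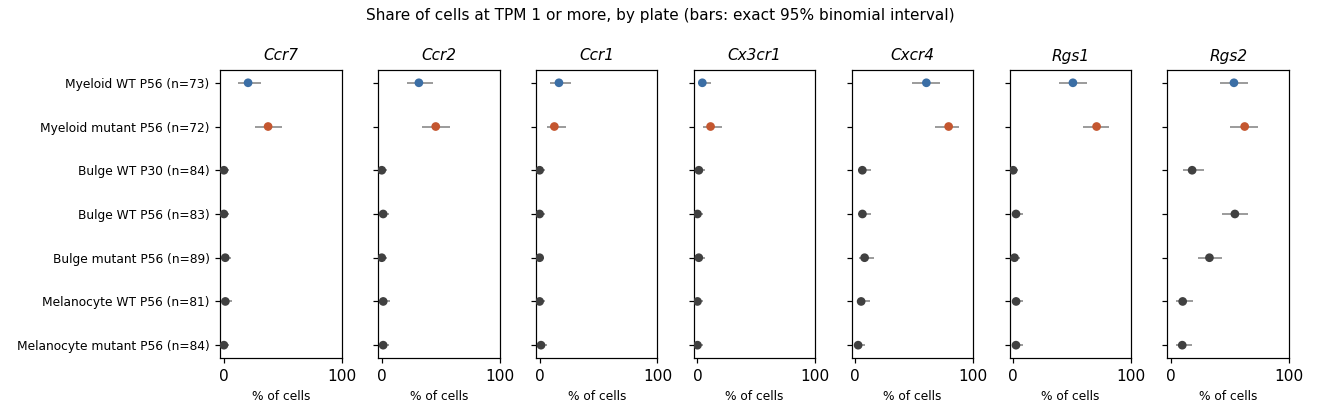
Share of cells at TPM 1 or more for each member in the 7 groups, with exact 95% binomial intervals that cover counting error only. Rgs2 is the only member above 10% in any bulge table, at 17.9 to 54.2%, and Cxcr4 stays at or under 7.87% outside the myeloid tables.

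Of the 7 members, 6 had a higher mean in mutant than in wild-type myeloid cells on the scale log2(TPM per 10000 + 1), and 2 passed 0.5 on that scale. Over all 7683 genes detected in at least 10% of cells of either plate, 0.573% were higher by 0.5 or more and 0.742% lower by 0.5 or more, and the median difference was 0.000843. The rule that chose the members drew on this comparison, so nothing is read from their count. The mean of Rgs1 was 1.37 in wild-type cells (SD over cells 1.75) and 2.64 in mutant cells (SD 2.22), a difference of 1.27 that no other tested gene exceeded. Ccr7 followed with 0.68 (SD 1.58) and 1.6 (SD 2.33), a difference of 0.92. Both differences were smaller than the SD over cells within a plate. Without the cells that had any C1q gene, a setting chosen after the data were seen, they were 1.09 for Rgs1 and 0.81 for Ccr7.

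Cxcr4 lay just under the limit, with means of 0.31 and 0.79 and a difference of 0.49. Cxcr4 passed the limit at 0.51 without the cells led by the T or NK set. Its difference was 1.24 with a pseudocount of 0.1 and 1.91 on log2(TPM + 1). On these scales far more genes passed 0.5, as given in the last section, so these larger values are no separate support. Rgs2 differed by 0.32, Ccr2 by 0.19 (-0.01 against wild-type rows A to D alone), Cx3cr1 by 0.06 and Ccr1 by -0.07. Mean TPM was 3.74 times higher in mutant cells for Rgs1, 3.35 times for Cxcr4, 2.83 times for Ccr7, 2.32 times for Rgs2 and 1.42 times for Ccr2, and 0.601 of the wild-type value for Ccr1. For Cx3cr1 it was 15.9 times, from 3 and 8 cells. Without the 5% of cells highest in the gene, mean TPM of Ccr7 was 101 and 613. In none of the 7 members were the 95% intervals of the shares apart between the plates, against 0.534% of the 7683 genes apart with the mutant higher and 1.12% with the mutant lower. Ccr7 depended on which wild-type wells were used: against plate rows A to D alone the difference was 1.31, and against rows E to H it was 0.47.

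Other genes of the pathway were compared in the same way, beside all 7683 tested genes, of which 50.5% were higher in the mutant plate. Of 24 chemokine receptors, 11 were detected in at least 10% of cells of either plate, 9 of them higher in the mutant plate and 1 past 0.5, which was Ccr7, and the median difference was 0.14. Ccr7 was chosen for this difference, and Ccr8, Cxcr6 and Cx3cr1 reached 10% of cells in the mutant plate only, so the count has no weight of its own. The receptor Ccrl2 was in 41.1% of wild-type and 37.5% of mutant cells. Xcr1, which marks cross-presenting dendritic cells, was in 20.5% and 23.6%. The chemerin receptor Cmklr1 was in 14 of 73 and 7 of 72 cells, with a difference of -0.16. Ccr8 and Cxcr6, receptors also found on T cells, had differences of 0.38 and 0.29 and were in 5.48% and 4.11% of wild-type and 13.9% and 12.5% of mutant cells.

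Among 21 RGS genes, 6 were tested and Rgs1 was the 1 that passed 0.5, beside 0.573% of all tested genes. The median difference over the 6 was 0.05. Rgs1 was chosen by a rule that drew on this comparison, so the count has no weight of its own. Rgs10, a small RGS protein of macrophages and microglia, was as frequent as Rgs2, in 41 wild-type cells (56.2%) and 45 mutant cells (62.5%), but differed by 0.09. Rgs19 was in 35.6% and 37.5% of cells with a difference of 0.02, Rgs18 in 16.4% and 12.5%, and Rgs3 in 11% and 11.1%. G protein and receptor desensitisation genes were split, 12 higher and 13 lower of 25 tested. Gnb2, a G protein beta subunit, at -0.52 was the only member past the limit, beside 0.742% of all tested genes at -0.5 or less. Gnai2, the main inhibitory alpha subunit of leukocytes, was at -0.48, and Rac2, a GTPase of leukocyte movement, at 0.29.

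The ligands of these receptors were mostly lower in the mutant plate. Of 16 ligand genes with a row, 11 were tested, 3 were higher and 8 lower in the mutant plate, 4 passed -0.5 and none passed 0.5, with a median of -0.22, beside 0.742% and 0.573% of all tested genes past these limits. These 4 were the monocyte attractants Ccl8, Ccl7, Ccl2 and Ccl12. Ccl8 and Ccl12 reached 10% of cells in the wild-type plate only, and Cx3cl1 in the mutant plate only. The counts of ligands therefore have no weight of their own. Ccl8 was in 24 of 73 wild-type and 7 of 72 mutant cells with a difference of -1.93, Ccl7 in 29 and 9 with -1.06, Ccl2 in 35 and 18 with -1.0, and Ccl12 in 17 and 1 with -0.75. Macrophage markers were lower beside them, with 7 of 10 tested at -0.5 or less and a median of -0.91, and their part in the ligand values was not tested. C1qc, Pf4 and Folr2, which are among these 7, reached 10% of cells in the wild-type plate only. The CCR7 ligands Ccl19 and Ccl21a were each in no more than 2 cells of a plate, and the CXCR4 ligand Cxcl12 in 0 of 73 wild-type cells, which allows up to 4.11%, and in 2 of 72 mutant cells.

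**Figure D3:**
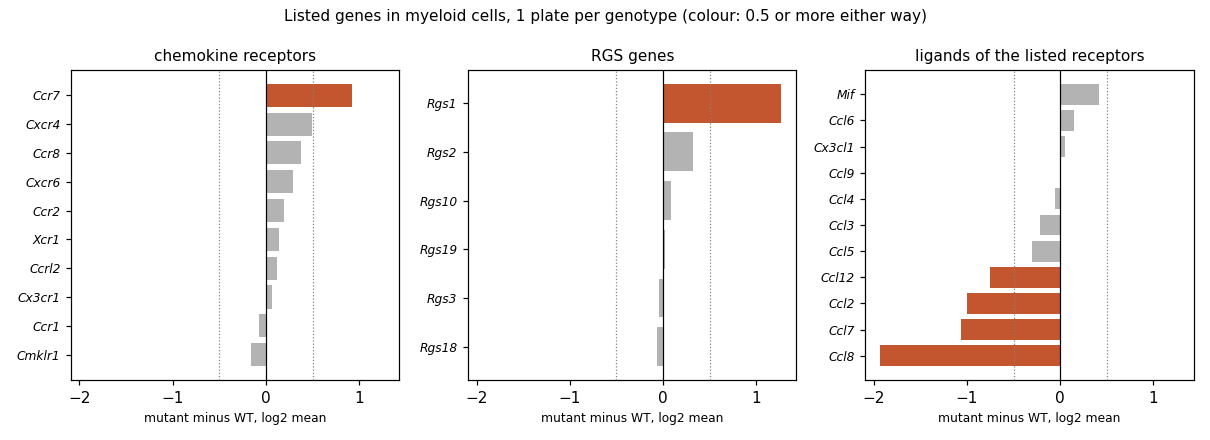
Mutant minus wild-type difference of mean log2 level in myeloid cells for tested chemokine receptors (10 of 11), RGS genes (6) and ligands (11), with dotted lines at the limits of 0.5 either way. Ccr7 at 0.92 and Rgs1 at 1.27 pass the upper limit, and Ccl8, Ccl7, Ccl2 and Ccl12 pass the lower limit.

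Many cells held more than 1 of the receptors. A wild-type cell held none of the 5 receptors in 11 cases, 1 in 36, 2 in 17 and 3 in 9. A mutant cell held none in 1 case, 1 in 26, 2 in 28, 3 in 16 and 4 in 1. Cxcr4 alone was the most frequent state in both plates, in 23 wild-type and 17 mutant cells. The combination of Ccr7, Ccr2 and Cxcr4 was found in 2 wild-type and 10 mutant cells without another receptor, and median genes per cell were 2606 and 3370 in these cells. Its pairs were near independence in mutant cells: Ccr7 with Ccr2 in 11 (12.4 under independence), Ccr7 with Cxcr4 in 22 (21.4) and Ccr2 with Cxcr4 in 26 (26.1). In wild-type cells these pairs were in 3 (4.7), 11 (9.0) and 11 (13.9). Nothing is read from the combination beyond the share of each receptor. Ccr2 and Ccr1 overlapped in 6 wild-type cells, where independence gives 3.8, and in 7 mutant cells, where it gives 4.1. Ccr7 and Ccr1 were shared by 2 wild-type cells and 1 mutant cell, against 2.5 and 3.4 under independence.

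By share of receptor-positive cells, Ccr7 was the receptor most often found with Rgs1, whereas by number of cells it was Cxcr4. In wild-type cells 13 of 15 Ccr7-positive cells had Rgs1 (86.7%, 59.5 to 98.3%), against 24 of 58 without Ccr7 (41.4%, 28.6 to 55.1%), and the intervals did not overlap. The mutant plate had Rgs1 in 23 of 27 Ccr7-positive cells (85.2%, 66.3 to 95.8%) and in 28 of 45 others (62.2%, 46.5 to 76.2%), and those intervals overlapped. This wild-type pair was 1 of 20 pairs of receptor, RGS gene and plate with intervals apart. For scale, when each of 6964 genes took the place of the receptor in wild-type cells, the interval for Rgs1 was apart and higher in cells with the gene for 0.330% of them and lower for 0.244%. In mutant cells these shares were 0.438% and 0.482% of 6843 genes. For Rgs2 they were 0.445% higher and 0.488% lower in wild-type cells, and 0.541% and 0.190% in mutant cells. The rule named these pairs, so this is a description.

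The level of Rgs1 followed the same line. Its median was 496 TPM in wild-type cells with Ccr7 and 0 TPM in those without, with ranges of 0 to 2764 and 0 to 2911 that overlapped fully. In mutant cells the medians were 871 and 236 TPM. Between the plates, the Rgs1 mean was higher in the mutant by 0.56 among cells with Ccr7 and by 1.23 among cells without it, and the same held in cells with Cxcr4 (1.33) and without it (0.70). Higher Rgs1 in the mutant plate was seen in cells with and without Ccr7.

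Rgs2 showed no such tie to Ccr7. It was in 5 of 15 wild-type cells with Ccr7 (33.3%, 11.8 to 61.6%) and 34 of 58 without (58.6%, 44.9 to 71.4%), and in 16 of 27 and 29 of 45 mutant cells. Of the 20 wild-type cells with Rgs2 and no Rgs1, 0 had Ccr7, which allows a share of up to 15%, and of the 18 with Rgs1 and no Rgs2, 8 had it (44.4%). Rgs1 and Rgs2 themselves met about as often as independence gives, in 19 wild-type cells (19.8 under independence) and 31 mutant cells (31.9).

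For the other receptors the intervals with and without the receptor overlapped in every case. Cxcr4-positive cells had Rgs1 in 24 of 44 wild-type (54.5%) and 44 of 57 mutant cells (77.2%), and cells without Cxcr4 in 13 of 29 (44.8%) and 7 of 15 (46.7%). With Rgs2 the order turned between plates, at 40.9% with and 72.4% without Cxcr4 in wild-type cells and 63.2% and 60% in mutant cells. Ccr2-positive cells had Rgs2 in 16 of 23 wild-type cells (69.6%) and 21 of 33 mutant cells (63.6%). Ccr1-positive cells had Rgs1 in 4 of 12 and 5 of 9, below the share in cells without Ccr1, which was 54.1% and 73%.

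**Figure D4:**
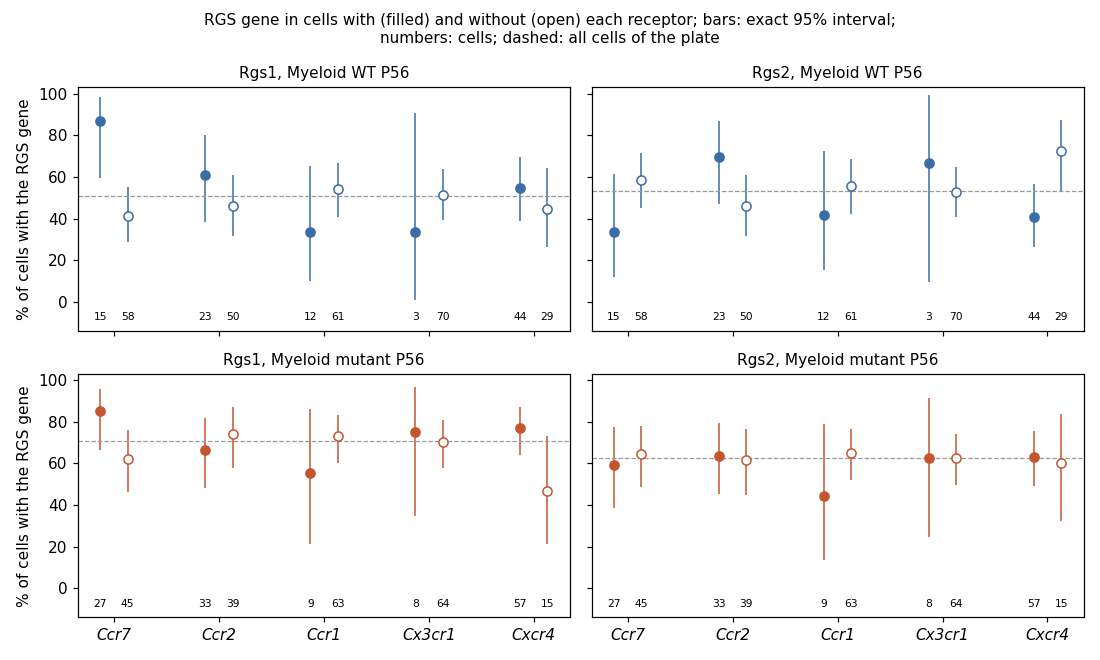
Share of myeloid cells with Rgs1 or Rgs2 among cells with (filled) and without (open) each receptor, with exact 95% intervals, the number of cells under each point and a dashed line at the share over the whole plate. Cells with Ccr7 have Rgs1 in 86.7% of wild-type and 85.2% of mutant cases, and the filled and open intervals are apart for this pair in the wild-type plate.

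Genes of migratory dendritic cells were higher in cells with Ccr7. The mean over the 17 genes of that list, which does not hold Ccr7, was 0.66 log2 units higher in wild-type cells with Ccr7 than without, and 0.56 higher in mutant cells, and its Spearman correlation with Ccr7 over cells was 0.52 and 0.55 (73 and 72 cells of 1 plate each). Traf1, a signalling adaptor of TNF receptors, was in 100% of wild-type cells with Ccr7 and 67.2% of those without, and in 96.3% and 80% of mutant cells. The chemokine gene Ccl22 was in 53.3% against 15.5% of wild-type cells and 51.9% against 11.1% of mutant cells. Fscn1, the actin-bundling gene that defines migratory dendritic cells, was in only 5 wild-type cells and 1 mutant cell of the whole plates, and Cacnb3 in 2 and 2, so the cells are called here by Ccr7 and not by that cell type. The T or NK cell list was also higher in cells with Ccr7, with means of 0.35 against 0.14 in wild-type and 0.26 against 0.16 in mutant cells.

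Ccr7 and Rgs1 cells shared further features in both plates, but 13 of 15 wild-type and 23 of 27 mutant cells with Ccr7 also had Rgs1. Il1b, which encodes interleukin-1 beta, was higher by 1.52 (wild-type) and 1.38 (mutant) in cells with Ccr7. In cells with Rgs1 it was higher by 0.76 and 1.69. The NF-kappaB inhibitor gene Tnfaip3 was higher by 0.79 and 0.67 with Ccr7, and by 0.58 and 0.68 with Rgs1. Both genes come from the list of 14 inflammatory cytokine genes, which did not move with them as a whole. Its mean was higher by only 0.15 and 0.09 with Ccr7, and by 0.21 and 0.17 with Rgs1. Macrophage genes were lower, for example Pf4 by -2.13 and -0.60 with Ccr7 and by -1.63 and -0.73 with Rgs1. Monocyte genes were rare in both plates, Ly6c2 in 9 of 73 and 11 of 72 cells and Plac8 in 6 and 9. Ly6c2 was in 0 of 15 wild-type cells with Ccr7, which allows up to 20%, and in 1 of 27 mutant cells. Plac8, a gene of monocytes, was in 0 of 15 and 0 of 27, which allows up to 20% and 11.1%, and the wild-type limits lie above the shares of the whole plate. Among cells with no C1q gene, Ccr7 was in 14 of 46 wild-type and 25 of 60 mutant cells, and among cells with a C1q gene in 1 of 27 and 2 of 12.

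Rgs2 cells differed from Rgs1 cells in these genes. Il1b was lower by -2.11 and -1.66 in cells with Rgs2, and the heat shock gene Hspa1a was higher by 1.51 and 1.17, while in cells with Rgs1 Hspa1a was lower by -0.93 and -1.54. Hspa1a has a near-identical copy, Hspa1b, so its reads may be split between them. The dendritic lectin gene Cd209a was lower with Rgs2 by -1.26 and -1.08. Il1b and Hspa1a were then split by both RGS genes, a choice made after their values were seen. Il1b was in 16 of 18 wild-type cells with Rgs1 alone (88.9%, 65.3 to 98.6%), 8 of 19 with both (42.1%), 8 of 20 with Rgs2 alone (40%, 19.1 to 63.9%) and 11 of 16 with neither (68.8%). In the mutant plate these counts were 18 of 20 (90%, 68.3 to 98.8%), 19 of 31 (61.3%), 3 of 14 (21.4%, 4.66 to 50.8%) and 5 of 7 (71.4%). Il1b already differed with each RGS gene alone, so this split restates that difference and is no separate support. Hspa1a was less frequent with Rgs1 alone than with Rgs2 alone, at 27.8% and 60% in wild-type and 45% and 78.6% in mutant cells. These intervals overlapped in the wild-type plate (9.69 to 53.5% and 36.1 to 80.9%) and in the mutant plate (23.1 to 68.5% and 49.2 to 95.3%). With both RGS genes and with neither, Hspa1a was in 68.4% and 43.8% of wild-type cells and 41.9% and 57.1% of mutant cells. The order of the classes thus differed between plates.

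Monocyte genes were seen more often in cells with Ccr1, and for Ccr2 a few cells carried the difference. In wild-type cells Ly6c2 was in 6 of 12 with Ccr1 and 3 of 61 without, and Plac8 in 5 of 12 and 1 of 61, although Ly6c2 and Ly6c1 are close copies whose reads may be shared. The neutrophil attractant Cxcl2 was in 7 of 12 wild-type cells with Ccr1 and 9 of 61 without. The monocyte list was higher by 0.48 and 0.64 in cells with Ccr1, and by 0.16 in both plates in cells with Ccr2. The median of that list was 0.00037 in wild-type cells with Ccr2 and 0.0009 in those without, and 0 in both kinds of mutant cell. Macrophage genes went with Ccr2 in opposite directions, -0.70 in wild-type and 0.18 in mutant cells. For Cxcr4 the list differences ran from -0.31 to 0.39. H2-Aa, an antigen presentation gene, was at -0.42 with Cxcr4 in wild-type and 2.10 in mutant cells. Dusp1, a phosphatase gene of the early stress response, was higher with Cxcr4 by 0.85 and 0.80.

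**Figure D5:**
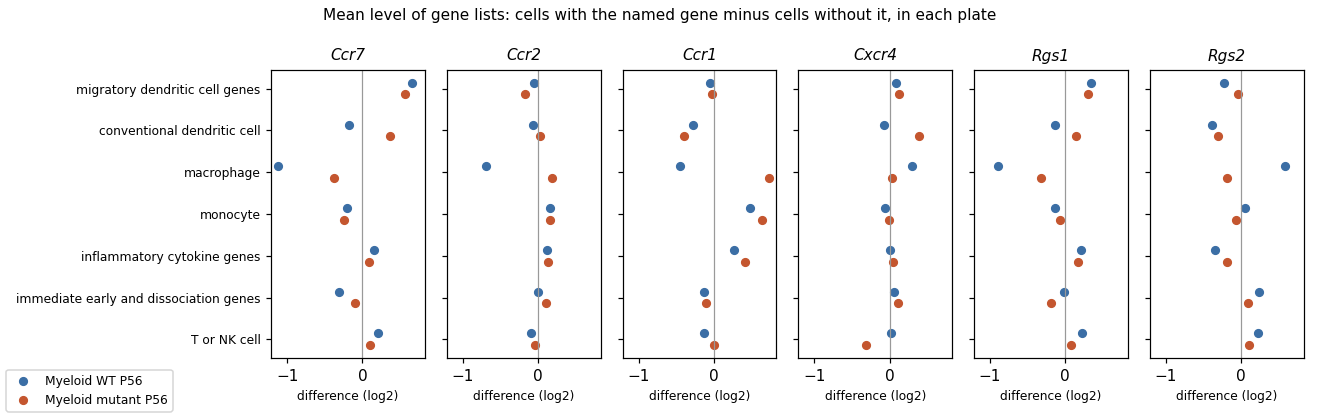
Mean level of 7 gene lists in cells with a member minus cells without it, on the log2 scale, in wild-type and mutant myeloid cells. The migratory dendritic cell list lies at 0.66 and 0.56 for Ccr7 and at 0.34 and 0.30 for Rgs1, the monocyte list is highest for Ccr1 at 0.48 and 0.64, and the macrophage list changes sign between plates for Ccr2, Ccr1 and Rgs2. Cx3cr1 is not drawn, with 3 and 8 cells.

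The genes most like each member over cells were ranked by the mean of the Spearman correlations within each plate, among 5640 genes detected in at least 10% of cells of each plate. The points are cells of 1 plate and share its chemistry, and the median size of rho over all candidates was 0.08 to 0.10. For Ccr7 they were Gadd45b, a stress response gene (0.48 in wild-type, 0.54 in mutant), the nuclear receptor Nr4a3 (0.42, 0.54), the NF-kappaB pathway protease Malt1 (0.57, 0.35), Ccl22 (0.36, 0.55) and Pdcd1lg2, which encodes the PD-1 ligand PD-L2 (0.37, 0.53). Nr4a3 was present in 13 of 15 wild-type and 27 of 27 mutant cells with Ccr7. It was widespread, in 51 of 73 wild-type and 53 of 72 mutant cells of the whole plates. For Rgs1 they were Bcl2a1b, an anti-apoptotic gene of a family of near-identical copies whose counts are uncertain (0.42, 0.48), Mapkapk3 (0.49, 0.22), Tnfaip3 (0.29, 0.42), Ehf (0.32, 0.36) and the TNF receptor gene Tnfrsf1b (0.35, 0.32).

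For Rgs2 the list held 3 chaperone genes, Hsp90ab1 (0.36, 0.42), Hspd1 (0.30, 0.45) and Hspa8 (0.29, 0.46), with the kinase gene Stk17b (0.46, 0.31) and the T cell adaptor gene Lime1 (0.40, 0.36). Rgs2 was in 4 of 4 wild-type and 8 of 10 mutant cells led by the T or NK cell set, Rgs1 in 4 and 7 of them, and Ccr7 in 2 and 5. For Ccr1 the list began with Ly6c2 (0.55, 0.31) and held Rnpc3, Cyp4f18, Sema4d and Cxcl2. The values for Ccr2 (Coro1a, Ndufb5, Coro1b, Psmd13 and Cep120, mean rho 0.33 to 0.38) lay within the range for Rgs1 (0.33 to 0.45). Those for Cxcr4 (Cxcl16, Tmco3, Arl8a, Tmcc1 and Cblb, 0.27 to 0.30) were the weakest. In sparse counts values of this size are no finding, and this holds for Rgs1 and Rgs2 too. Cx3cr1 was in too few cells to rank.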

How the data were processed

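Single cells were captured on Fluidigm C1 chips and made into libraries that the labels call Smart-seq2. The methods instead name a Clontech SMARTer kit for the single cells, and Smart-seq2 only for bulk RNA. Per the methods and processing notes, the authors aligned reads to the mouse genome with STAR 2.4.2 and estimated gene levels with RSEM. The methods name FPKM, but the deposited tables, 1 per group, are named and scaled as TPM. Chambers with no cell or several cells were left out by eye under a microscope, and no doublet caller was run here. 1 column matched no sample and was left out, and 77 mutant myeloid columns carry a group but no well. Cells with a TPM total under 750000, over 20% mitochondrial TPM or too few genes (1000; 2000 to 7000 for bulge cells) were dropped, which kept 566 of 605. A gene was detected at TPM 1 or more. Differences are means of log2(TPM per 10000 + 1), which understates changes of low genes, called at 0.5. With 1 plate per group no test was run; shares carry exact Clopper-Pearson 95% intervals (SciPy 1.17.1), and a count of 0 carries the limit of 3 cells of the total. The difference script was tested on simulated data. The genes and lists were chosen with earlier results of these data known. Named genes were the members, every receptor and RGS gene in at least 10% of cells of either plate, the 5 genes most correlated with each member, and those with the largest differences in each other list. 3 listed genes had no row. Alternatives covered the TPM limit, cell filters, scale, pseudocount, wells and cell types. 1 tested receptor is counted in its list but not reported here by name.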

Additional observations from a re-analysis of the deposited data

How the results depend on the processing

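The Ccr2 difference, 0.19 as reported, was -0.01 against wild-type rows A to D, and no other member's difference changed sign under the alternatives run. The median difference of all tested genes, 0.000843, was -0.000534 with no cell filter, -6.94e-05 against rows A to D and -0.000665 against rows E to H. No paired analysis was possible because each group is 1 plate and no result comes from a test. Of the alternatives, 83 of 84 shares, 115 of 120 co-detection shares, 42 of 56 means, 58 of 70 differences and 14 of 20 gene counts stayed near the reported value. At TPM 10 or more, Cxcr4 was in 46.6% of wild-type cells. Cx3cr1 pairs rest on few cells: in wild-type cells Rgs1 was in 0% and Rgs2 in 100% of Cx3cr1 cells at TPM 10 or more and also without C1q cells, and without C1q cells Rgs1 was in 100% of mutant ones. Settings on C1q were chosen after seeing the data. Without the 5% of cells highest in the gene, wild-type mean TPM was 101 for Ccr7, 22.8 for Ccr2, 8.01 for Ccr1, 0 for Cx3cr1 and 110 for Rgs2, and mutant mean TPM 613 for Ccr7, 2.04 for Ccr1, 1.05 for Cx3cr1, 1006 for Rgs1 and 217 for Rgs2. Mean TPM of Rgs2 was 160 and 285 without cells led by the T or NK set, and 269 in mutant cells with 2000 or more genes. Mean TPM of Ccr1 in mutant cells was 27.8 with no cell filter. The Ccr7 difference was 0.47 against wild-type rows E to H. On log2(TPM + 1) of the deposited values the differences were 1.0 for Ccr2, 1.91 for Cxcr4 and 0.89 for Rgs2, and with a pseudocount of 0.1 they were 0.57, 1.24 and 0.59. Cxcr4 passed the limit at 0.51 without T or NK cells, 0.51 with 2000 or more genes, 0.53 without C1q cells and 0.53 against rows A to D, as did Rgs2 at 0.53 against rows E to H. Genes higher by 0.5 or more numbered 1186 on log2(TPM + 1) and 413 with the pseudocount of 0.1, against 44, and genes lower 1107 and 351, against 57, with 36 in cells with 2000 or more genes and 30 without C1q cells. These scales weigh low genes more by construction. For the cell subsets and wells the cause was not tested.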
